A study of Homo sapiens with 6 samples.

Results

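The expression of 10 genes of bone morphogenetic protein (BMP) signalling was followed in SiHa PR cells with and without P4HA3 overexpression, and the genes were taken by gene symbol from the 60664 genes of the count table. They comprise the secreted antagonist noggin (NOG), the ligands BMP2, BMP4 and BMP5, the pseudoreceptor BAMBI, the inhibitory SMAD proteins SMAD6 and SMAD7, and the target genes ID1, ID2 and ID3. The set was selected on knowledge of the log2 fold changes measured between these same libraries, so the differences of its genes are a description, and the calls that the fit across all genes gave them are counted as such and support nothing. SiHa is an established human cervical squamous carcinoma line, and PR denotes the parental cells from which a highly lymph node metastatic derivative had been raised. RNA-seq covered 3 libraries labelled only SiHa PR, the control cells, and 3 libraries labelled SiHa PR P4HA3, in which a lentiviral vector expressed P4HA3, a subunit of the prolyl hydroxylases that modify collagen chains. No ligand, inhibitor or other agent of the pathway is named in the labels for either group, and nothing states that the 3 libraries of a group came from separate cultures, so p-values measure only the spread between these libraries.

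Libraries held 21773488 to 24939948 counts, and 15130 genes had enough counts to be tested, including 9 of the 10 genes, with BMP4 below that limit. P4HA3 had 86, 62 and 93 counts in the control libraries and 45042, 44775 and 49097 with overexpression, a log2 fold change of 9.15 (edgeR quasi-likelihood test, adjusted p = 3.19e-12). The epithelial keratins KRT8 and KRT18 averaged 1817 and 942 CPM in control cells (counts scaled to the TMM-normalised library size), whereas KRT5, KRT19 and TP63 were under 1 CPM. With overexpression KRT18 fell to 716 ± 61.0 CPM (SD, n = 3, log2 fold change -0.40, edgeR adjusted p = 0.0108). CDH1, the gene of E-cadherin, fell from 16.5 ± 0.211 to 9.66 ± 0.821 CPM (SD, n = 3, log2 fold change -0.77, edgeR adjusted p = 0.00114). KRT8 (log2 fold change -0.094), EPCAM (-0.073) and KRT19 (0.22) were not called, and KRT5 and TP63 were not tested. The 7 epithelial markers summed to 2560 to 2900 CPM in control cells and 2320 to 2620 CPM with overexpression. The deposited growth protocol describes uterine smooth muscle, and of 7 smooth muscle markers CNN1 and LMOD1 stayed at 3 counts or fewer in every library and MYH11 and DES at 9 or fewer. The summed CPM of the 7 markers, most of it SMTN, ran from 95.3 to 105 in control cells and from 94.3 to 112 with overexpression. One of them, ACTG2, split the libraries across both groups, with 0, 1 and 30 counts in the control libraries (replicates 1, 2 and 3) and 40, 1 and 44 in the P4HA3 libraries. MYH11 (2, 1 and 9 against 7, 1 and 3) and DES (1, 1 and 6 against 2, 0 and 8) also had their highest counts in these 3 libraries. ACTA2 had 161 to 204 counts in every library. The endothelial marker PECAM1 fell from 2.89 ± 0.473 to 1.40 ± 0.0634 CPM (SD, n = 3; log2 fold change -1.03, edgeR adjusted p = 0.00494), while CDH5 and VWF had 2 counts or fewer in every library. The 5 fibroblast markers summed to 124 to 126 CPM in control cells and 94.4 to 123 CPM with overexpression, and 3 of 4 leukocyte markers were at 3 counts or fewer throughout. The part of these markers in the results was not tested.

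BMPs are secreted dimers of the TGF-beta superfamily that assemble type I and type II serine/threonine kinase receptors, which phosphorylate SMAD1, SMAD5 and SMAD9. These bind SMAD4, enter the nucleus and activate target genes, foremost the ID genes, whose proteins lack a DNA-binding region and sequester basic helix-loop-helix factors. The pathway is held in check at every level, by antagonists such as noggin that bind the ligand outside the cell, by BAMBI at the receptor and by SMAD6 and SMAD7 inside the cell, and several of these inhibitors are themselves BMP targets.

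SMAD proteins bind short DNA elements at such targets, and the sequences just upstream of the transcription start are shown for SMAD6, BAMBI and the ID genes, each of which has 1 listed start. RefSeq promoter windows (GRCh38.p14) matched 8 of the 10 genes. Each sequence below is the 250 bases before the start, 5′ to 3′ on the gene's strand, in lower case, with capitals for matches to GTCTAGAC (the palindromic SMAD box), to GGCGCC (a GC-rich element also bound by SMADs) and to the core GTCT or its complement AGAC. The windows lie at chr15:66701986-66702235 on the plus strand for SMAD6, chr10:28677271-28677520 on the plus strand for BAMBI, chr20:31605039-31605288 on the plus strand for ID1, chr2:8681806-8682055 on the plus strand for ID2 and chr1:23559502-23559751 on the minus strand for ID3.
SMAD6: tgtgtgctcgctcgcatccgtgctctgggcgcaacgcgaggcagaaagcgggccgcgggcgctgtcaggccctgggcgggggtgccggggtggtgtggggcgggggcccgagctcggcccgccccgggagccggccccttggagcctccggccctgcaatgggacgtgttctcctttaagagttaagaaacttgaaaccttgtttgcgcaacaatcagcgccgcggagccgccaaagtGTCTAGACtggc
BAMBI: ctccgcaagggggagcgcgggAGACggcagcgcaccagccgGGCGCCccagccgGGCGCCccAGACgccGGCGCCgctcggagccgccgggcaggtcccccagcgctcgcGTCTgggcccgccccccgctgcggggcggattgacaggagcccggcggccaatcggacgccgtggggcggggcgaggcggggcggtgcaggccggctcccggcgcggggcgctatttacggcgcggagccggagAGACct
ID1: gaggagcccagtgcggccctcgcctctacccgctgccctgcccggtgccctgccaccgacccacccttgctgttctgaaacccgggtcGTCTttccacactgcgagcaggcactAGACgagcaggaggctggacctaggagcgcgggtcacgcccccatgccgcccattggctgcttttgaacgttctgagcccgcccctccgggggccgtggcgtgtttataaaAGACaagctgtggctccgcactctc
ID2: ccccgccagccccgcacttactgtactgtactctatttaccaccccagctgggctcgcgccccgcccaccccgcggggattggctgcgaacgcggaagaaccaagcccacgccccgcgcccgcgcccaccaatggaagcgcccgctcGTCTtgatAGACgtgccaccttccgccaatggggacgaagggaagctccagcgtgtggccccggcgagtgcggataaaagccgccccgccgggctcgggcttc
ID3: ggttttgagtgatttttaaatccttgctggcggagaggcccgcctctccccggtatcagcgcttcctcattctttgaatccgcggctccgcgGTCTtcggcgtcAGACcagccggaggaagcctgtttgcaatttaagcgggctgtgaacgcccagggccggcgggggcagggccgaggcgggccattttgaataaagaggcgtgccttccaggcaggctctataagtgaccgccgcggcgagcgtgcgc
The SMAD6 window held 1 GTCTAGAC, beginning 12 bases before the start, and both of its GTCT or AGAC matches lay inside that element. This element occurred in 64 of 35114 windows of the same length from 27303 genes (0.182%). BAMBI, whose window is 81.2% GC, carried 3 GGCGCC elements. Of all windows, 16.4% held this element at least once, a share not matched for GC content. Of the 3 listed BMP4 windows 1 carried 1. The core GTCT or AGAC was found 4 times for BAMBI, 3 times for ID1, 2 times each for ID2 and ID3 and 1, 5 and 4 times in the 3 listed windows of SMAD7, and 77.5% of all windows held it. Both strands were searched, and a match is a description of letters, not of bound protein.

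Of the 9 tested genes, 5 (NOG, BMP5, SMAD6, ID2 and ID3) had a higher level in the overexpressing cells with an adjusted p under 0.05 and 0 a lower one, beside 9.36% of all tested genes called higher, 11.4% called lower and 20.8% called in either direction. The 3 overexpression libraries lay above the 3 control libraries for 7 of the 9 and below them for 0, and BMP2 and ID1 overlapped. Over all tested genes the groups were separate for 40.1%, with 19.7% higher and 20.4% lower. The median log2 fold change of the 9 genes was 0.345, against 0.00555 over all tested genes. BMP5 passed the filter on low counts only through its overexpression libraries, and since this comparison also led to the choice of the genes, nothing is read from these counts.

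**Figure D1:**
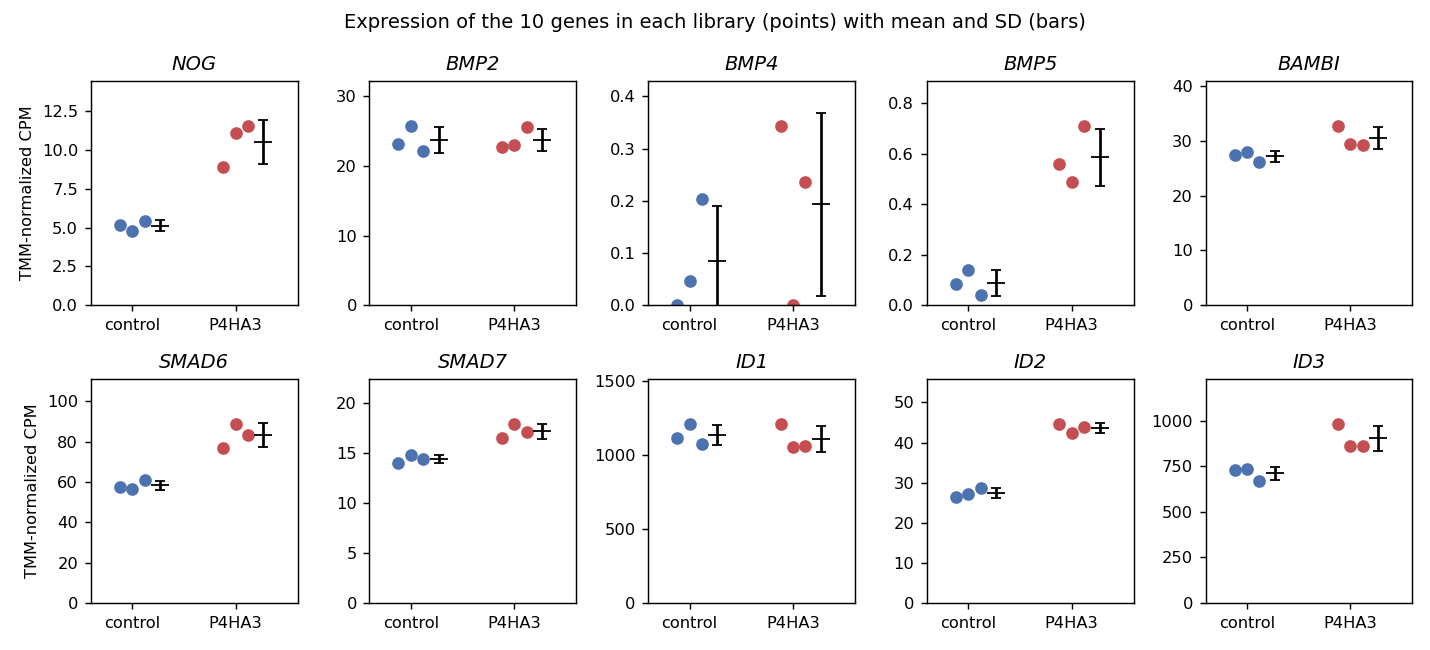
TMM-normalised CPM of the 10 genes in each library, 1 panel per gene, with its own linear axis from 0. Points are the 3 control and 3 P4HA3 overexpression libraries, and lines give the mean and SD of each group (the lower SD bar of BMP4 is cut at 0). NOG, SMAD6, ID2 and ID3 show separated groups, BMP2 and ID1 overlap, and BMP4 and BMP5 lie under 1 CPM.

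NOG (ENSG00000183691, chr17:56593699-56595611, plus strand; gene positions are those of GENCODE on GRCh38) encodes noggin, which binds BMP ligands and keeps them from their receptors. It stood at 5.17, 4.79 and 5.43 TMM-normalised CPM in the control libraries, and at 8.93, 11.1 and 11.6 CPM in the P4HA3 libraries, each in the order of replicates 1 to 3, as throughout. Every overexpression library was above every control library, and the mean went from 5.13 ± 0.326 to 10.5 ± 1.40 CPM (SD, n = 3), a 2.05-fold difference (log2 fold change 1.03, SE 0.124). The counts behind these values were 102 to 133 per control library and 208 to 293 per overexpression library.

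The 3 ligands did not follow a single pattern. BMP2 (ENSG00000125845, chr20:6767686-6780246, plus strand), a broadly acting osteogenic ligand, had 23.1, 25.8 and 22.2 CPM in control cells and 22.8, 22.9 and 25.6 CPM with overexpression. These groups overlapped, and the log2 fold change of 0.007 had a 95% interval from -0.19 to 0.20. BMP5 (ENSG00000112175, chr6:55753653-55875590, minus strand), of the same subgroup as BMP6 and BMP7, had 2, 3 and 1 counts in the control libraries and 13, 11 and 18 counts with overexpression. Summed over each group this was 6 against 42 counts, a ratio of 6.90 after scaling to library size with an interval from 2.92 to 19.9 that covers counting error only. The fitted log2 fold change of 2.71 (SE 0.456) depends on the prior count at this depth, and per length BMP5 stayed the least abundant or next to least abundant of the 10 genes, at 0.0437 ± 0.0240 and 0.310 ± 0.0633 TPM (counts scaled by transcript length and then by their sum; SD, n = 3).

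BMP4 (ENSG00000125378, chr14:53949736-53958761, minus strand), a close relative of BMP2, had 0, 1 and 5 counts in control cells and 8, 0 and 6 counts with overexpression. A difference between the groups was not detectable at this depth. The 3 libraries with 5 or more BMP4 counts were the same 3 libraries that held 30 to 44 ACTG2 counts and the highest MYH11 and DES counts. The part of these smooth muscle transcripts in the BMP4 counts was not tested.

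BAMBI (ENSG00000095739, chr10:28677510-28682932, plus strand) encodes a transmembrane pseudoreceptor without a kinase domain that dampens BMP and TGF-beta receptors. Its level was 27.4, 28.0 and 26.1 CPM in control cells and 32.7, 29.5 and 29.2 CPM with overexpression. The groups did not overlap, but the log2 fold change of 0.17 (SE 0.0753) was not called, with a 95% interval that reached 0 at its lower end.

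SMAD6 (ENSG00000137834, chr15:66702236-66782849, plus strand), the inhibitory SMAD that acts mainly on the BMP branch, had 57.3, 56.7 and 60.8 CPM in control cells and 77.1, 88.9 and 83.3 CPM with overexpression. The lowest overexpression library exceeded the highest control library, and the means of 58.3 ± 2.21 and 83.1 ± 5.94 CPM (SD, n = 3) were 1.43-fold apart (log2 fold change 0.51, SE 0.0676). SMAD7 (ENSG00000101665, chr18:48919853-48950965, minus strand), which inhibits both the BMP and the TGF-beta branch, had 14.0, 14.8 and 14.4 CPM in control cells and 16.4, 17.9 and 17.1 CPM with overexpression. It was higher in 3 of 3 libraries, by a smaller log2 fold change of 0.25 (SE 0.0815) that was not called, although it was called with limma-voom and, at 0.28, without P4HA3 replicate 1. The ratio of SMAD6 to SMAD7 in TPM was 3.57, 3.34 and 3.69 in control cells and 4.09, 4.33 and 4.26 with overexpression, higher in every overexpression library than in any control library.

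The 3 ID genes differed from one another. ID1 (ENSG00000125968, chr20:31605283-31606515, plus strand), the best known immediate BMP target, had 1117, 1214 and 1077 CPM in control cells and 1208, 1058 and 1062 CPM with overexpression. The groups overlapped, with a log2 fold change of -0.034 and a 95% interval from -0.20 to 0.13. ID2 (ENSG00000115738, chr2:8678845-8684461, plus strand) had 26.4, 27.1 and 28.7 CPM in control cells and 44.7, 42.4 and 43.8 CPM with overexpression. Its means of 27.4 ± 1.20 and 43.6 ± 1.19 CPM (SD, n = 3) were 1.59-fold apart (log2 fold change 0.67, SE 0.0674), and the groups were separate. An antisense gene, ID2-AS1, shares 145 exonic bases with ID2 and had 15 to 28 counts in every library, and the strand setting of the counting is not stated. ID3 (ENSG00000117318, chr1:23557926-23559501, minus strand) had 729.3, 734.7 and 670.0 CPM in control cells and 985.4, 864.5 and 860.7 CPM with overexpression. The groups were separate, with means of 711 ± 35.9 and 904 ± 70.9 CPM (SD, n = 3), a 1.27-fold difference (log2 fold change 0.35, SE 0.0717). The ID3 call was lost without control replicate 2, although the log2 fold change was then 0.37.

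The make-up of the summed ID transcripts differed between the groups. In TPM, ID1 made up 59.1%, 60.9% and 60.1% of the summed ID1, ID2 and ID3 transcripts in control cells and 53.4%, 53.3% and 53.5% with overexpression. ID3 took the larger part of that difference, at 39.9%, 38.1% and 38.7% against 45.1%, 45.1% and 44.8%. ID2 remained a small share, at 1.06%, 1.03% and 1.21% against 1.50%, 1.62% and 1.67%. The 3 shares were closer within each group than between the groups, and the summed level of the 3 genes was 3794, 3944 and 3771 TPM in control cells and 4574, 4388 and 4328 TPM with overexpression. In these bulk libraries, fewer cells of a state and less RNA per cell cannot be told apart.

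**Figure D2:**
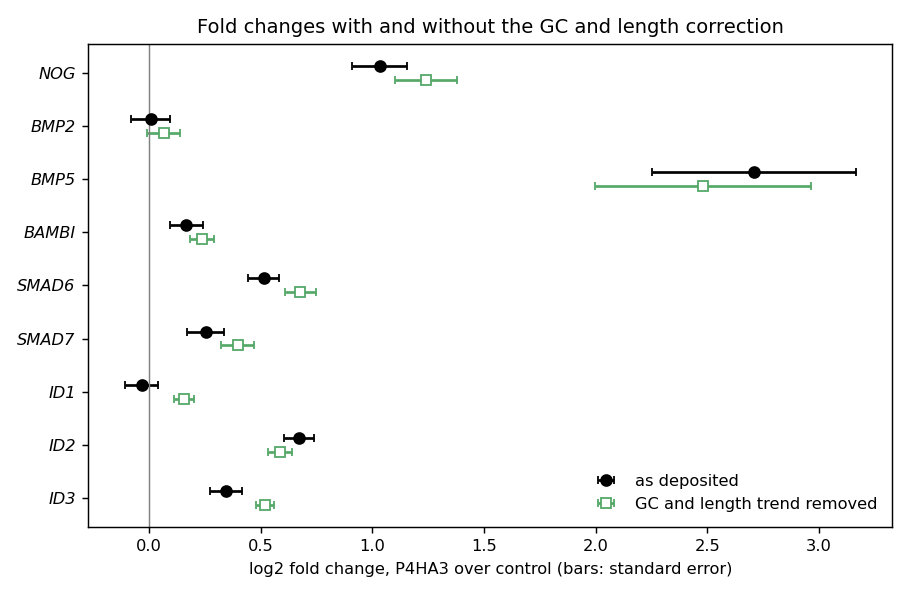
Log2 fold change (P4HA3 overexpression over control) of the 9 tested genes with bars for the standard error, as deposited and after correction for GC content and transcript length. Values to the right of 0 are higher with overexpression. BMP5 has the longest bars, NOG, SMAD6, ID2 and ID3 lie to the right of 0 in both fits, and ID1 moves from -0.034 to 0.157.

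Across all tested genes the log2 fold change tended to follow base composition, which touches these values. Across 15107 genes the log2 fold change correlated with the GC content of the transcript (Spearman rho -0.58, across genes, which are not independent replicates) and with its length (rho 0.27), so GC-rich genes were on the whole lower with overexpression. Among the 9 tested genes, NOG (59.2% GC), SMAD6 (58.8%), ID1 (57.9%), SMAD7 (57.0%) and ID3 (56.7%) are GC-rich against a median of 49.3%, and BMP5 (36.2%) and ID2 (42.5%) are GC-poor. After the GC and length trends of the libraries had been taken out, the log2 fold change was 1.24 for NOG, 0.68 for SMAD6, 0.40 for SMAD7, 0.52 for ID3 and 0.24 for BAMBI, all larger than before. It was 0.59 for ID2 and 2.48 for BMP5, both smaller, and 0.16 for ID1, whose sign reversed. All but BMP2 (0.064), 8 of the 9 genes, were then called higher, beside 10.6% of all tested genes called higher and 7.94% called lower in that fit. The correction removes any part of the difference that follows GC content or length, and whether that part is technical was not tested.

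**Figure D3:**
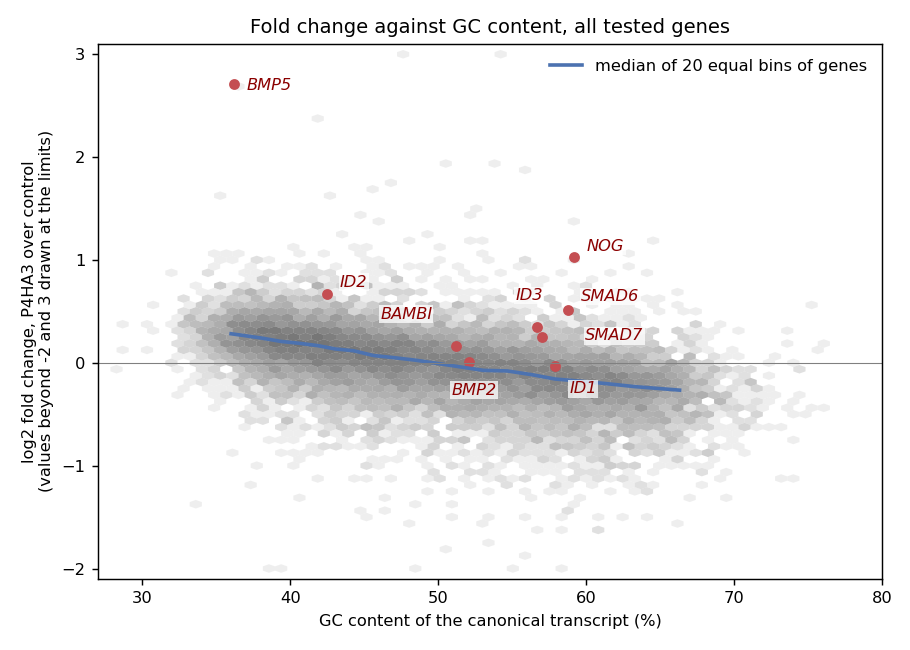
Log2 fold change of all tested genes against the GC content of their transcript in percent, as grey hexagons shaded by the number of genes on a log scale. The line joins the medians of 20 equal bins of genes and falls from above 0 at low GC to below 0 at high GC, and values beyond the limits are drawn at them. NOG, SMAD6, ID3 and SMAD7 sit above the line at their GC content.

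Levels of different genes were compared per transcript length. In control cells ID1 led at 2303 ± 85.6 TPM (SD, n = 3), followed by ID3 at 1492 ± 29.2 and, far lower, ID2 at 42.1 ± 3.15. BAMBI at 32.0 ± 0.142 TPM and SMAD6 at 30.4 ± 2.16 TPM did not differ beyond the spread of SMAD6. BMP2 followed at 13.3 ± 0.709, SMAD7 at 8.59 ± 0.320 and NOG at 5.36 ± 0.506 TPM, each apart from its neighbours. BMP4 (0.0887 ± 0.115) and BMP5 (0.0437 ± 0.0240) closed the order and overlapped. With overexpression NOG reached 11.6 ± 2.01 TPM, within the spread of SMAD7 at 10.8 ± 0.945, and SMAD6 at 45.7 ± 5.29 TPM lay above BAMBI at 37.8 ± 0.737. The use of all annotated exons as the length exchanged only ID2 and BAMBI in the control order. The distances changed more, as BAMBI then lay well above SMAD6 in control cells and SMAD6 only just above BMP2. The order with overexpression was not computed with that length, so the place of SMAD6 above BAMBI holds for the canonical transcript length only.

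NOG transcripts remained fewer than the summed transcripts of the 14 listed BMP ligands, but not fewer than those of each ligand. With overexpression NOG had 11.6 ± 2.01 TPM (SD, n = 3). BMP2 had 14.1 ± 1.36, BMP7 14.9 ± 0.134 and BMP6 17.0 ± 1.86 TPM in the same libraries. All other listed ligands were below NOG, with BMP8B the highest of them at 5.39 ± 0.284 TPM. The summed TPM of the 14 listed BMP ligands was 52.1, 53.9 and 53.9 in control cells and 49.5, 54.1 and 54.9 with overexpression, without separation of the groups. NOG per ligand TPM was 0.102, 0.0902 and 0.109 in control cells and 0.187, 0.233 and 0.236 with overexpression. RNA ratios do not give the amounts of secreted protein.

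**Figure D4:**
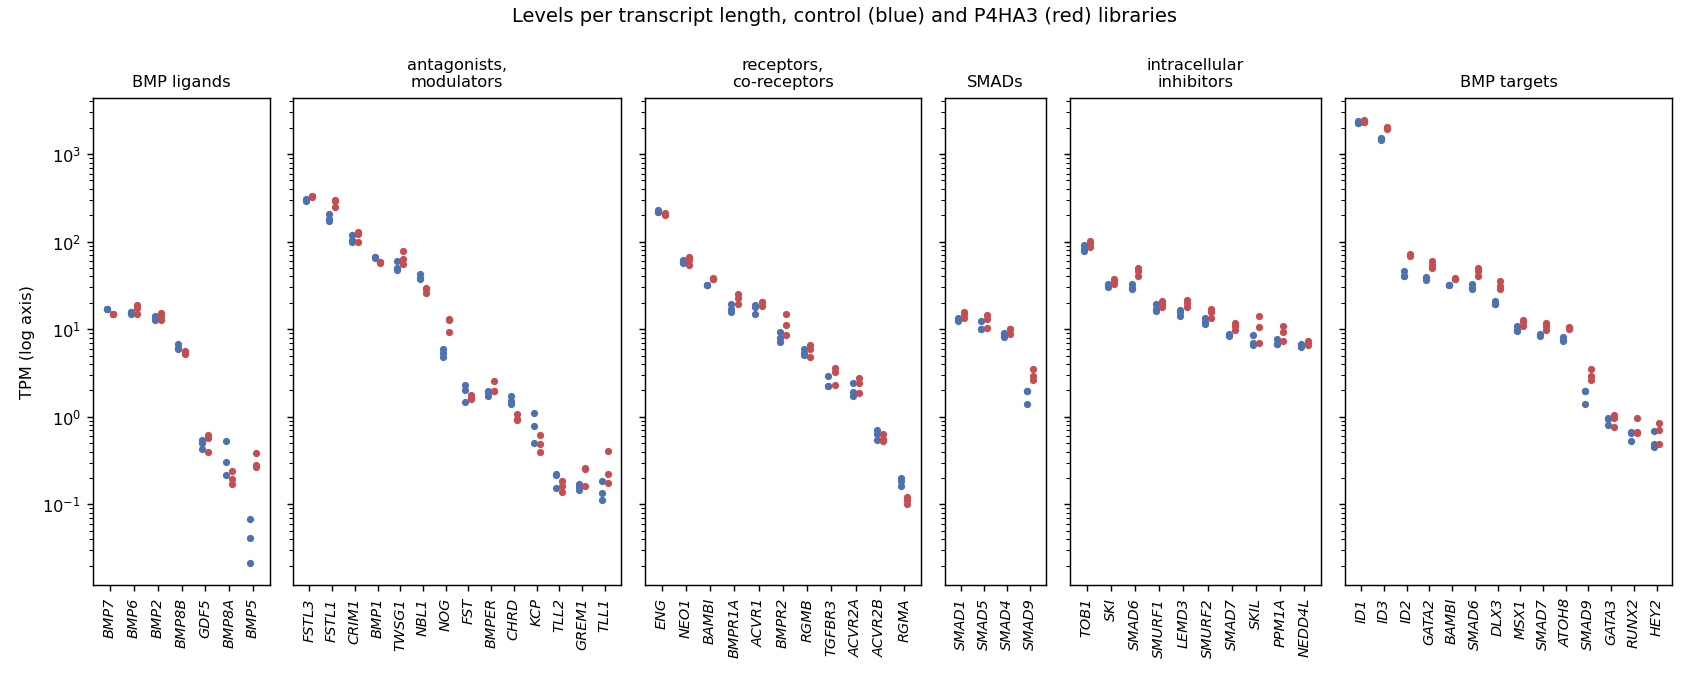
TPM on a log axis of the tested genes of each pathway list, 1 panel per list, with a point for each control library (blue) and each P4HA3 overexpression library (red). ID1 and ID3 stand highest, at 2303 and 1492 TPM on average in control cells, and every ligand and SMAD transducer lies far below them.

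The wider pathway showed which of its parts SiHa PR cells expressed. Beside the 10 genes, 70 genes in 6 lists were examined, of which 47 were tested and 16 had 3 counts or fewer in every library. The lists were drawn up with earlier results of these data known, so their shares of calls are a description. Among ligands, BMP7 (17.2 ± 0.108 TPM), BMP6 (15.5 ± 0.331 TPM) and BMP2 were the most abundant, and BMP3, BMP10, BMP15 and GDF2 were among 5 at the detection limit. Among antagonists and modulators FSTL3 (301 ± 6.53 TPM), FSTL1 (187 ± 16.4 TPM) and CRIM1 (107 ± 10.3 TPM) led, while SOST, SOSTDC1, CER1 and DAND5 were among 6 at the limit. The co-receptors ENG (222 ± 9.49 TPM) and NEO1 (58.8 ± 2.32 TPM) exceeded the type I receptor BMPR1A (17.4 ± 1.84 TPM), and BMPR1B and HJV were at the limit. SMAD1 (12.9 ± 0.617 TPM) was above SMAD5 (10.9 ± 1.29 TPM) in each control library, at 12.89, 12.31 and 13.54 against 10.15, 10.08 and 12.35 TPM. SMAD4 had 8.66 ± 0.449 TPM. Among intracellular inhibitors TOB1 (84.0 ± 6.97 TPM), SKI (31.9 ± 1.33 TPM) and SMAD6 were the most abundant. TOB1 (log2 fold change 0.11) and SKI (0.066) were not called with overexpression, although SKI was called with the GC and length correction (0.24). Of the target genes ID4, MSX2 and HAMP were at the limit.

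Of the 47 tested genes, 8 rose and 6 fell with P4HA3 overexpression (edgeR quasi-likelihood test, adjusted p under 0.05), which is 29.8% beside 20.8% of all tested genes, with a median log2 fold change of 0.108. The count of 14 was 9 after the GC and length correction (8 higher, 1 lower), and leaving out 1 library changed it to 4 for control replicate 1, to 6 for control replicate 2, to 23 for P4HA3 replicate 1, to 8 for P4HA3 replicate 2 and to 5 for P4HA3 replicate 3. The share of all tested genes called moved in the same directions, from 20.8% to 18.5% with the correction and to 5.09%, 3.47%, 35.9%, 14.3% and 5.89% with these libraries left out in the same order. FSTL1, NBL1, DLX3 and GATA2 passed under every alternative that was run.

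Among target genes outside the 10, 4 of 8 tested rose and 0 fell, beside 9.36% and 11.4% of all tested genes. The median log2 fold change of the 8 was 0.298, against 0.00555 over all tested genes. This list was also chosen with earlier results of these data known, so its count supports nothing. DLX3, a homeobox factor of epidermal differentiation, had 25.3, 28.2 and 24.2 CPM in control cells and 37.4, 43.0 and 38.0 CPM with overexpression (log2 fold change 0.61, SE 0.085, edgeR adjusted p = 0.00225). GATA2, a zinc finger factor induced by BMP4 in mesoderm, went from 66.1, 64.1 and 64.5 CPM to 85.4, 93.9 and 85.0 CPM (log2 fold change 0.44, SE 0.0605, edgeR adjusted p = 0.00203). Neither gene's groups overlapped. ATOH8, a basic helix-loop-helix factor downstream of BMP receptors, rose by a log2 fold change of 0.36 (edgeR adjusted p = 0.0175), from 21.8 ± 1.75 to 27.9 ± 1.42 CPM (SD, n = 3), and its call was lost without control replicate 1 (0.35) or P4HA3 replicate 3 (0.35). SMAD9, the fourth, is also a transducer and is given with the SMADs. The other tested targets were not called, among them GATA3 (log2 fold change -0.049), MSX1 (0.16), RUNX2 (0.23) and HEY2 (0.24), and with the GC and length correction MSX1 was called as well (0.38).

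Of the 4 SMAD transducers, SMAD9 alone was called, a share of 25% beside 20.8% of all tested genes (9.36% called higher). It had 3.94, 5.63 and 5.31 CPM in control cells and 7.30, 8.98 and 7.61 CPM with overexpression, without overlap of the groups (log2 fold change 0.68, SE 0.147, edgeR adjusted p = 0.0128), and the call was lost without control replicate 1, where the log2 fold change was 0.54. SMAD1, SMAD5 and SMAD4 were not called. Of the 8 tested intracellular inhibitors other than SMAD6 and SMAD7, 2 were called, both higher. This share of 25% is near the 20.8% of all tested genes (9.36% called higher). The ubiquitin ligase SMURF2, which targets SMADs and their receptors, rose by a log2 fold change of 0.24 (edgeR adjusted p = 0.0485). LEMD3, an inner nuclear membrane protein that binds SMADs, rose by 0.27 (edgeR adjusted p = 0.0242). Both calls were lost with the GC and length correction, with log2 fold changes of 0.073 for SMURF2 and 0.14 for LEMD3, and also without control replicate 1 or 2 or P4HA3 replicate 2 or 3, where they ran from 0.19 to 0.25 and from 0.23 to 0.28. SMURF2 also lost it without control replicate 3 (0.28), with limma-voom, with upper-quartile factors and with library sizes only.

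Outside the cell the called genes went both ways. FSTL1, a secreted glycoprotein related to follistatin, had 526.0, 508.3 and 564.9 CPM in control cells and 711.8, 777.7 and 780.3 CPM with overexpression (log2 fold change 0.51, SE 0.0651, edgeR adjusted p = 0.00152). NBL1, an antagonist of the DAN family, went from 43.9, 39.8 and 36.2 CPM to 28.9, 24.2 and 27.9 CPM (log2 fold change -0.56, SE 0.0936, edgeR adjusted p = 0.0047). The groups of both genes were separate, and NBL1 shares 552 exonic bases on its strand with the readthrough gene MICOS10-NBL1, so its counts are uncertain. It stayed called with the GC and length correction, at a smaller log2 fold change of -0.30. CHRD, which encodes the antagonist chordin, fell from 2.74 ± 0.388 to 1.67 ± 0.223 CPM (SD, n = 3; edgeR adjusted p = 0.0206), and BMP1, the protease that cleaves chordin, fell from 119 ± 4.27 to 99.9 ± 4.80 CPM (edgeR adjusted p = 0.0164). With the GC and length correction CHRD (log2 fold change -0.44) and BMP1 (-0.064) were no longer called, nor were they without control replicate 1 or 2 or P4HA3 replicate 3 (-0.60 to -0.71 for CHRD and -0.23 to -0.26 for BMP1). CHRD also lost its call with DESeq2, and it shares 361 exonic bases with THPO on the opposite strand. Over this list without NOG, 1 of 13 tested genes rose and 3 fell, beside 9.36% and 11.4% of all tested genes.

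Among the ligands other than BMP2, BMP4 and BMP5, 2 of 5 tested fell and 0 rose, beside 11.4% and 9.36% of all tested genes. BMP7 went from 35.1, 35.2 and 33.5 CPM to 30.5, 27.4 and 28.0 CPM (log2 fold change -0.27, SE 0.0716, edgeR adjusted p = 0.0255), and BMP8B from 15.2 ± 0.581 to 12.4 ± 0.519 CPM (SD, n = 3; log2 fold change -0.30, edgeR adjusted p = 0.034). The groups did not overlap for either gene. Both calls were lost with the GC and length correction (-0.15 for BMP7 and -0.19 for BMP8B) and without control replicate 1 or 2 or P4HA3 replicate 2 or 3 (-0.25 to -0.26 and -0.27 to -0.32), that of BMP8B also without control replicate 3 (-0.27), with DESeq2 and with no filter on low counts. BMP8B has a near-identical copy in BMP8A that can share its reads. The type I receptor BMPR1A rose from 55.9 ± 4.08 to 68.6 ± 6.51 CPM (SD, n = 3; edgeR adjusted p = 0.0319) and the co-receptor RGMA fell from 1.04 ± 0.129 to 0.604 ± 0.0775 CPM (edgeR adjusted p = 0.0398), as the only 2 calls among 10 tested receptor genes, a share close to the 20.8% of all tested genes. RGMA was given no adjusted p by DESeq2. Each lost its call with the correction and without control replicate 1 or 2 or P4HA3 replicate 2 or 3 (0.22 to 0.30 for BMPR1A and -0.70 to -0.76 for RGMA). BMPR1A has processed pseudogenes, and exons of RGMA (428 bases) and BMP1 (461 bases) lie over another gene on the same strand, so these counts are uncertain.

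**Figure D5:**
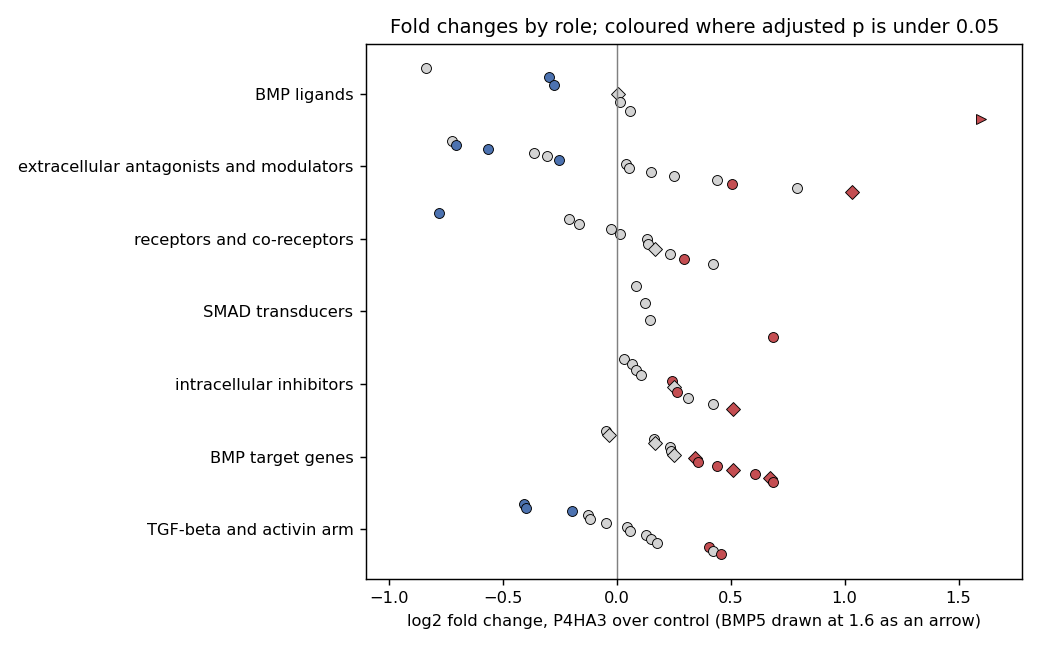
Log2 fold change (P4HA3 overexpression over control) of the tested genes of each list, 1 row per list and 1 symbol per gene, with diamonds for the 10 genes. Red and blue mark an adjusted p under 0.05 with a higher or a lower level, grey the rest, and BMP5 is drawn as an arrow near the right limit. Calls among SMAD transducers (SMAD9 alone), intracellular inhibitors and target genes are red, and the other lists hold both colours. A gene of several lists, such as SMAD6 or SMAD9, is drawn in each of them. The calls of SMURF2 and LEMD3 among the inhibitors were lost with the GC and length correction.

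The related TGF-beta and activin arm, which shares SMAD4 and SMAD7 with the BMP branch, was examined beside it. Of 14 tested genes, 2 rose and 3 fell, beside 9.36% and 11.4% of all tested genes, with a median log2 fold change of 0.0507. This list too was chosen with earlier results of these data known, so its count is a description. TGFBI, an extracellular matrix protein named for its induction by TGF-beta, had 59.0, 58.4 and 57.8 CPM in control cells and 81.0, 82.4 and 77.5 CPM with overexpression (log2 fold change 0.46, SE 0.0557, edgeR adjusted p = 0.00121). TGFB1, the main ligand, had 160.5, 172.5 and 149.1 CPM against 128.0, 115.7 and 119.7 CPM (log2 fold change -0.41, SE 0.0673, edgeR adjusted p = 0.00457). CCN2, a matricellular TGF-beta target, rose (log2 fold change 0.40, edgeR adjusted p = 0.0286), and the ligand TGFB3 (-0.40, edgeR adjusted p = 0.0172) and the type I receptor ACVR1B (-0.20, edgeR adjusted p = 0.0488) fell. The count of 5 was 2 without control replicate 1, control replicate 2 or P4HA3 replicate 3, when the calls of CCN2, TGFB3 and ACVR1B were lost. ACVR1B also lost its call with DESeq2, with library sizes only, with no filter, with the replicate block, with the GC and length correction and without control replicate 3 or P4HA3 replicate 2. TGFBI and TGFB1 were called under every alternative that was run, TGFB1 at -0.16 with the GC and length correction. In control cells TGFB1 (115 ± 4.99 TPM), PMEPA1 (70.4 ± 1.515 TPM) and TGFBI (42.95 ± 1.11 TPM) were the most abundant genes of this list. PMEPA1 was not called (log2 fold change -0.12).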

How the data were processed

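Poly-A RNA of SiHa PR cells (3 control and 3 P4HA3 overexpression libraries) had been sequenced as strand-specific paired ends. According to the methods, the authors aligned reads to GRCh38 with STAR, using Ensembl release 104, and counted them with HTSeq, whereas the submitters' processing notes name HISAT2. The deposited values are raw counts per gene without normalization, made by the authors with 1 column per library. Versions, the strand setting and the treatment of multiply mapped reads are not given in the sources used here. Reads with several matches can be lost for near-identical genes, and overlapping genes can share reads if strand was ignored.

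The quasi-likelihood test of edgeR 4.0.16 in R 4.3.3 (two-sided, after filterByExpr with a minimum count of 10 and TMM) was applied to the counts, and p-values were adjusted by Benjamini-Hochberg across 15130 genes. The TMM factors were 0.979 to 1.02 and the common biological coefficient of variation 7.66%. A gene of 1 CPM rests on little more than 20 counts, so low genes are limited by counting. A count of 3 or fewer was the detection limit. TPM used the canonical transcript length of GENCODE release 44, which matched 60463 of 60664 identifiers. Replicates differed by more than sampling noise (chi-square per degree of freedom 5.17 to 17.8). For the correction, mgcv 1.9.3 smoothed the deviations of every library over GC content and log2 length, and the fitted values served as offsets. A permutation of 3 against 3 libraries cannot go below p = 0.1, so no exact test was used.

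The genes and lists were chosen with earlier results of these data known. Named are the 10 genes, P4HA3, in each list up to 4 genes called in each direction, the 3 most abundant and up to 4 at the detection limit, and the 5 genes most correlated with NOG. MSX1, GATA3, RUNX2, HEY2, the SMADs and receptors given beside a call, and all marker genes with values were named after their values were seen. Alternatives were DESeq2 1.42.0, limma-voom (limma 3.58.1), RLE and upper-quartile factors, library sizes only, no filter, at least 10 counts in every library, P4HA3 and P4HA3-AS1 left out, the replicate number as a block, the GC and length correction with and without that block, each library left out, and an adjusted p under 0.01.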

Additional observations from a re-analysis of the deposited data

How the results depend on the processing

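Over the alternatives the log2 fold change ran from 0.961 to 1.24 for NOG, 0.46 to 0.677 for SMAD6 and 0.586 to 0.709 for ID2, a description, since these values led to the choice of the genes. Among the 10 BMP genes the count of calls was 5, and it was 8 with the GC and length correction, 8 with the replicate block added to it, and 4 to 6 with 1 library left out. It was 4 with DESeq2, which gave BMP5 no adjusted p, and 4 with at least 10 counts in every library. At an adjusted p under 0.01 it was 4, and with limma-voom 6. Of all tested genes, 20.8% were called in the main fit, 18.5% with the correction and 25.2% with the block added. The share was 3.47% to 35.9% with 1 library left out, 22.9% with DESeq2 and 21.9% with at least 10 counts in every library. It was 4.81% at an adjusted p under 0.01 and 20.2% with limma-voom. In the wider pathway 14 calls became 9 with the correction, 4 at an adjusted p under 0.01, and 4 to 23 with 1 library left out, beside 18.5%, 4.81% and 3.47% to 35.9% of all tested genes. In the TGF-beta arm 5 calls became 8 with the replicate block and the correction, 2 at an adjusted p under 0.01, and 2 to 7 with 1 library left out. The shares of all tested genes called were 25.2%, 4.81% and 3.47% to 35.9% in the same order. P4HA3 ran from 9.06 to 9.24 with 1 library left out and was 9.27 with the correction.

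Same-numbered libraries did not deviate together (correlations 0.25, -0.049 and 0.03), and control replicates 2 and 3 correlated best with P4HA3 replicates 1 and 2, so the numbers were not taken as pairs. With the replicate block, called genes rose from 3147 to 4313 of all genes and from 14 to 20 in the wider pathway, and were 5 for the 10 BMP genes and 5 for the TGF-beta arm (3 higher and 2 lower, against 2 and 3), where ACVR1B lost its call.

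Of the values followed for 43 single genes, those of P4HA3 left aside, 601 kept direction and call, 75 lost the call, 14 gained it and 22 changed sign. The alternative of an adjusted p under 0.01 is not in this tally. With the correction, and with the block added, ID1 was 0.157 and 0.157, CRIM1 -0.00984 and -0.0106, ENG 0.0711 and 0.0716, SMAD5 -0.123 and -0.122, SMAD4 -0.123 and -0.122, TCF3 0.112 and 0.111, and TCF12 -0.0362 and -0.037. BMP2 was -0.000465 with upper-quartile factors. With 1 library left out, BMP2 ran from -0.0494 to 0.0709, ID1 from -0.0989 to 0.0166, CRIM1 from -0.0107 to 0.115, NEO1 from -0.0609 to 0.0169 and TCF4 from -0.0113 to 0.437. Apart from the removal of libraries or of the GC and length trend, the cause was not tested. BMP4, BMP5, CHRD and RGMA are limited by their low counts.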

Other observations

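ID proteins act by binding the E proteins TCF3, TCF12 and TCF4, and the balance of these transcripts was computed as well. The summed level of the 3 E proteins was 64.0, 65.5 and 71.1 TPM in control replicates 1, 2 and 3 and 62.2, 72.9 and 73.5 TPM with P4HA3 overexpression. ID transcripts (ID1, ID2 and ID3) were 59.3, 60.3 and 53.0 times as abundant in control cells and 73.6, 60.2 and 58.9 times with overexpression, so the groups overlapped. TCF3 (log2 fold change -0.10), TCF12 (0.16) and TCF4 (0.28, at 0.120 TPM in control cells) were not called by edgeR, and 0 of the 3 passed an unadjusted p under 0.05. DESeq2 and limma-voom also called 0, and TCF12 was called only without P4HA3 replicate 1 (0.25).

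The profile of NOG over the 6 libraries was most like that of TMEM202-AS1, with a Pearson correlation of log2 CPM of 0.999, followed by THRAP3 (0.999), UFSP2 (0.998), PKP4 (0.997) and GXYLT1 (0.997). The correlation was at least 0.95 for 516 of the 13369 genes compared, which all share the same 6 libraries and 2 groups. Of the other BMP genes, SMAD6 (0.989), ID2 (0.959) and SMAD7 (0.953) were within that range. ID3 had 0.794, BAMBI 0.647, BMP2 0.0539 and ID1 -0.43.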
